A study of Mus musculus with 2 samples.

Results

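The genes described here are 10 members of the BCL2 family, chosen by symbol from the 43346 mouse gene entries of each gene table: the protective genes Bcl2l1, Mcl1 and Bcl2, the effector genes Bax and Bak1, and the BH3-only genes Bbc3, Bad, Bcl2l11, Bid and Pmaip1. All 10 were matched by identifier in the gene tables and in the transcript tables. The cells were G1E-ER4, an immortalized erythroid line from a male mouse (age given as 0 days) that lacks a working Gata1 gene of its own and in which an estradiol-dependent GATA1 fusion restores the factor. The labels give 1 group, cells differentiated with 10 nM 17beta-estradiol for 24 h, and 2 polyadenylated RNA libraries named biological replicates 1 and 2, sequenced from both ends. A single biosample record covers both, and their spread may therefore be technical only. No untreated sample was analysed here, so the values do not describe a response to estradiol.

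Proteins of the BCL2 family decide whether the outer mitochondrial membrane stays intact. BAX and BAK1 form pores in that membrane and release cytochrome c, the protective proteins BCL-XL (from Bcl2l1), MCL1 and BCL2 hold them in check, and the BH3-only proteins either block the protective proteins or activate the effectors. In maturing erythroid cells BCL-XL is the best known survival factor, downstream of erythropoietin signalling and of GATA1.

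The gene tables summed to 70451041 rounded counts (replicate 1) and 13841484 (replicate 2), and replicate 1 was thus 5.09 times deeper. A level of 1 TPM (transcripts-per-million, scaled for length) or more in both libraries was reached by 15 of 16 erythroid marker genes. Of 38 measured markers of megakaryocytes, monocytes, neutrophils, mast cells, B cells, T and NK cells, and fibroblasts and endothelium, 3 did (the megakaryocyte genes Itga2b, Gp1ba and Gp9), and their summed level over all 38 was 24.3 TPM in replicate 1 and 41.3 TPM in replicate 2. The erythroid markers include Gata1, whose counts were not separated from those of the GATA1 fusion. The libraries lay far apart across genes: of 8895 genes with a mean of at least 1 CPM (counts-per-million), 47.9% differed by at least 2-fold in CPM scaled by the trimmed mean of M-values (TMM), 17.6% higher in replicate 2 and 30.4% higher in replicate 1. The median log2 ratio of replicate 2 over replicate 1 across these genes was -0.22. Counting intervals below cover counting error only, and levels are TPM, which are corrected for length, unless CPM is named.

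The transcripts whose shares are given for several members part at the coding positions shown here, from the GENCODE M21 transcripts on mm10. Most of these transcripts also differ in their ends, so the point shown is not their only difference. Each line gives the last 15 bases that the transcripts take from the same genome positions in lower case and the next 20 bases of each in capitals, 5′ to 3′ on the strand of the gene. All of these bases are annotated as coding.
Bak1-201: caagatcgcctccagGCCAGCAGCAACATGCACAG
Bak1-202: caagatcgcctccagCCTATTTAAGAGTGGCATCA
Mcl1-202: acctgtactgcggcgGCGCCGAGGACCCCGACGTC
Mcl1-201: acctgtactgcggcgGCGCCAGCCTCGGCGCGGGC
Bad-204: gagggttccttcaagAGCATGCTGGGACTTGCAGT
Bad-202: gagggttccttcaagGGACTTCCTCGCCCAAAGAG
Bcl2l11-204: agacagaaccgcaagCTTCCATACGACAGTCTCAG
Bcl2l11-203: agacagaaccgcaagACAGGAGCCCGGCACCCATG
Bcl2l11-205: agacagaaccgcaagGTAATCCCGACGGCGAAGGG

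In Bak1 the 20 capitals of Bak1-201 are a whole exon, exon 5 of 7 at chr17:27021663-27021682, which Bak1-202 skips. In Mcl1 the transcript Mcl1-202 leaves out 138 coding bases that Mcl1-201 keeps. In Bad the transcript Bad-204 goes to a last exon of its own and Bad-202 to the usual one. In Bcl2l11 the 3 lines are the short, long and extra-long coding forms, with 110, 140 and 196 residues by their annotated coding length. Of the 40 transcripts that the tables list for the 10 genes, 39 were named in GENCODE M21 and 34 had the same length there. Mcl1-201 was among those whose length differs, 3485 bases in the tables against 3418.

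Levels of the members ran from 0.01 to 325 TPM in replicate 1 and from 0.03 to 1247 TPM in replicate 2. With at least 1 TPM in both libraries, 7 of the 10 genes were detected (Bcl2l1, Mcl1, Bax, Bak1, Bbc3, Bad and Bcl2l11), against 17.2% of all genes and 33.1% of protein coding genes. The median of those 7 was 145 TPM in replicate 1 and 114 TPM in replicate 2, beside 19.0 and 14.7 TPM over all 7444 detected genes. Bcl2, Bid and Pmaip1 did not reach 1 TPM in both. By mean TPM the order was Bbc3, Mcl1, Bcl2l1, Bax, Bak1, Bad, Bcl2l11, Bid, Bcl2 and Pmaip1. Among neighbours in that order the ranges of the 2 libraries did not overlap for Bad above Bcl2l11, Bcl2l11 above Bid, and Bid above Bcl2, and overlapped for all others. Of the 45 pairs of members, 36 had the same order in both libraries.

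**Figure D1:**
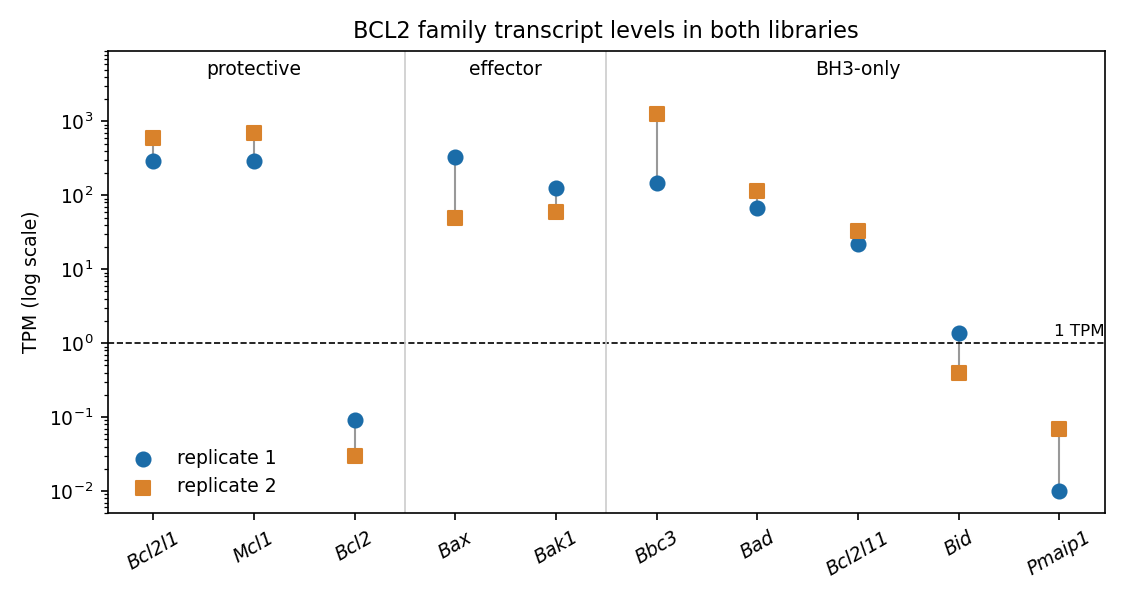
Level of each member in TPM on a log axis, with 1 point for each library, ordered by role; the dashed line is 1 TPM and grey lines join the 2 libraries. Bcl2 and Pmaip1 lie under 0.1 TPM in both libraries, while Bbc3 runs from 145 to 1247 TPM and Bax from 325 to 49.6 TPM in the opposite direction.

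Among the protective genes, Bcl2l1 and Mcl1 were high in both libraries and Bcl2 was close to absent. Bcl2l1 (ENSMUSG00000007659.14, mm10 chromosome 2, 152780668 to 152831728, minus strand), the BCL-XL gene, had 288 and 595 TPM in replicates 1 and 2, with a mean of 442 ± 217 TPM (SD, n = 2, as for each value of this form). Those values lay at the 94.6th and 96.9th percentile of the detected genes of their library. Mcl1 (ENSMUSG00000038612.12, chromosome 3, 95658788 to 95663176, plus strand), which encodes a protective protein of rapid turnover, had 295 and 701 TPM, or 498 ± 287 TPM. Both genes were higher in replicate 2, and Mcl1 lay slightly above Bcl2l1 in each library. In counts, which are not corrected for length, the order was the reverse, with an effective length of 2222 and 2285 bases for Bcl2l1 against 936 and 1149 for Mcl1: Bcl2l1 had 44193 and 15190 counts and Mcl1 19032 and 9006. With 1 fixed effective length for each gene, Mcl1 lay below Bcl2l1 in replicate 1, at 271 against 291 TPM. Mcl1 lay above Bcl2l1 in replicate 2 by that measure, at 797 against 622 TPM.

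Bcl2 (ENSMUSG00000057329.7, chromosome 1, 106538178 to 106714274, minus strand), the founding member and a protective gene of lymphocytes and early progenitors, had 39 counts in replicate 1 and 1 in replicate 2. Exact Poisson intervals were 27.7 to 53.3 counts and 0.0253 to 5.57 counts. These are 0.09 and 0.03 TPM. The ratio of replicate 1 over replicate 2 in TMM-scaled CPM was 5.81 with a counting interval of 0.984 to 235, so no difference between the libraries was detectable at this depth. Bcl2l1 and Mcl1 made up nearly the whole protective sum: Bcl2l1 took 49.4% of it in replicate 1 and 45.9% in replicate 2, Mcl1 50.5% and 54.1%, and Bcl2 0.0154% and 0.00232%.

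The effector genes were both expressed and both lower in replicate 2. Bax (ENSMUSG00000003873.10, chromosome 7, 45461697 to 45466898, minus strand), which encodes the effector that moves from the cytosol to mitochondria, had 325 and 49.6 TPM in replicates 1 and 2, a mean of 187 ± 194 TPM, from 16050 and 410 counts. Bax was the highest of the 10 members in replicate 1 and lay below Bak1, Bad, Bcl2l1, Mcl1 and Bbc3 in replicate 2. Bak1 (ENSMUSG00000057789.9, chromosome 17, 27019810 to 27029009, minus strand), the effector resident in the mitochondrial membrane, had 125 and 59.3 TPM, or 92.0 ± 46.4 TPM, from 15650 and 1495 counts.

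The BH3-only genes split into Bbc3, with a high level, Bad and Bcl2l11 at intermediate levels, and Bid and Pmaip1 near 0. Bbc3 (ENSMUSG00000002083.8, chromosome 7, 16308393 to 16318205, plus strand), which encodes PUMA, a p53 target that binds all protective proteins, had 145 and 1247 TPM in replicates 1 and 2, a mean of 696 ± 779 TPM, from 7810 and 5676 counts. It was the highest member in replicate 2 and the fourth highest in replicate 1. Bad (ENSMUSG00000024959.9, chromosome 19, 6941861 to 6951899, plus strand), whose protein is kept inactive by phosphorylation downstream of survival signals, had 67.2 and 114 TPM, or 90.6 ± 33.2 TPM, from 3260 and 713 counts. Bcl2l11 (ENSMUSG00000027381.12, chromosome 2, 128126038 to 128162547, plus strand), which encodes BIM, an activator of the effectors and a FOXO3 target, had 21.6 and 33.1 TPM, or 27.4 ± 8.16 TPM, from 1366 and 300 counts. Bad and Bcl2l11 were the members of this class with the smallest relative spread between libraries.

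Bid (ENSMUSG00000004446.8, chromosome 6, 120891930 to 120916853, minus strand), whose protein links caspase 8 to mitochondria, had 183 counts in replicate 1 and 10 in replicate 2, or 1.36 and 0.39 TPM. Its exact Poisson interval in replicate 2 was 4.80 to 18.4 counts. Bid overlaps Bcl2l13 on the opposite strand, a gene with 22979 and 1768 counts. No source used here says whether counting used strand, so whether reads from bases shared by such pairs were told apart is not known. Bad likewise overlaps Gpr137 on the opposite strand (3553 and 650 counts) and Bak1 overlaps Ggnbp1 (285 and 77 counts). On the same strand Bax overlaps Gm45808 and Bid overlaps Gm44260, for which no counts were available. Pmaip1 (ENSMUSG00000024521.7, chromosome 18, 66458533 to 66465565, plus strand), which encodes NOXA, a binder of MCL1, had 1 and 2 counts, with exact Poisson intervals of 0.0253 to 5.57 and 0.242 to 7.22 counts. Transcripts for NOXA were thus near the limit of detection in both libraries.

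Summed by side, protective and death-promoting transcripts were close in each library, but the genes behind the death-promoting sum were not the same. The protective sum was 583 TPM in replicate 1 and 1296 TPM in replicate 2. The death-promoting sum over 7 genes was 684 and 1503 TPM. Their log2 ratio, protective over death-promoting with a pseudocount of 0.1 TPM, was -0.23 in replicate 1 and -0.21 in replicate 2, or -0.22 ± 0.01 (SD, n = 2). In replicate 1 Bax took 47.4% of the death-promoting sum, Bbc3 21.1% and Bak1 18.2%. In replicate 2 Bbc3 took 82.9%, Bad 7.59%, Bak1 3.94% and Bax 3.30%. The effector sum was 449 TPM in replicate 1 and 109 TPM in replicate 2, 4.13-fold higher in replicate 1, while the BH3-only sum was 235 and 1394 TPM, 5.94-fold higher in replicate 2. In TMM-scaled CPM these ratios were smaller, 2.48 for the effectors and 3.56 for the BH3-only genes, and at fixed length they were 3.69 and 3.43.

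**Figure D2:**
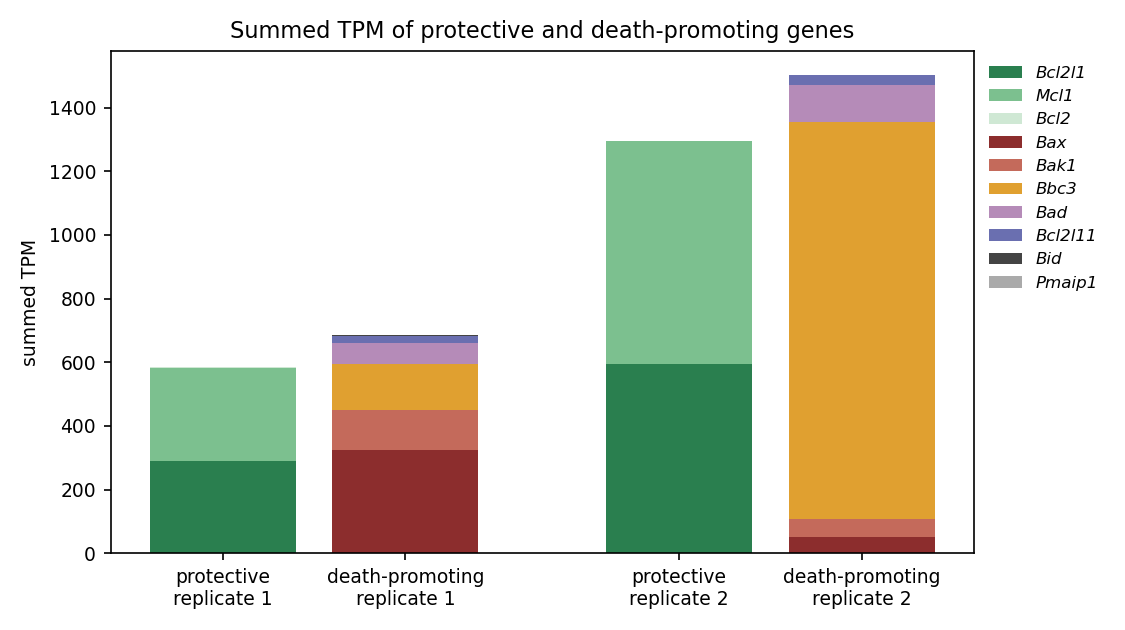
Summed TPM (vertical axis, from 0) of the protective and death-promoting genes in each library, with 1 colour for each gene. The death-promoting bar is led by Bax in replicate 1 (47.4% of 684 TPM) and by Bbc3 in replicate 2 (82.9% of 1503 TPM).

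The near equality of the 2 ratios depended on Bbc3, on the length correction and on the transcripts counted. Without Bbc3 the log2 ratio was 0.11 in replicate 1 and 2.34 in replicate 2. Against the effectors alone it was 0.38 and 3.57, and against the BH3-only genes alone 1.31 and -0.11. With counts divided by 1 fixed effective length for each gene, the mean of both libraries, it was -0.39 and 0.32, so that its sign differed between the libraries. For protein coding transcripts only it was 0.02 and -0.19, and the sign differed there too. In CPM with no length correction it was 0.51 and 1.49.

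Set side by side in TMM-scaled CPM, 5 of the 8 members with a mean of at least 1 CPM differed by 2-fold or more between the libraries (Bcl2l1, Mcl1, Bbc3, Bax and Bid), beside the 47.9% of all genes tested given above. Of these, 3 were higher in replicate 2 (Bcl2l1, Mcl1 and Bbc3) and 2 in replicate 1 (Bax and Bid). The median log2 ratio of the 8 members was 0.56. Bbc3 was 96.6 CPM in replicate 1 and 471 CPM in replicate 2, 4.87-fold higher in replicate 2 (exact 95% interval 4.71 to 5.04). Mcl1 was 3.17-fold higher (3.09 to 3.25) and Bcl2l1 2.31-fold higher (2.26 to 2.35) in replicate 2. Bax was 198 CPM in replicate 1 and 34.0 CPM in replicate 2, 5.84-fold higher in replicate 1 (5.29 to 6.45), and Bid 2.73-fold higher there (1.45 to 5.79).

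The remaining members tested lay within 2-fold. Bak1 was 1.56-fold higher in replicate 1 (1.48 to 1.65), Bad 1.47-fold higher in replicate 2 (1.35 to 1.59) and Bcl2l11 1.47-fold higher in replicate 2 (1.30 to 1.67). These intervals exclude 1 but carry no biological spread, since each library is a single sample. The scaling moved some calls. With total counts in place of TMM the median log2 ratio over all genes tested was -0.61, Bcl2l1 fell inside 2-fold with a log2 ratio of 0.81 and Bak1 passed it with -1.04. In TPM without globin and mitochondrial genes Bcl2l1 (0.79) and Mcl1 (0.998) both fell inside 2-fold and Bak1 passed it with -1.32. Of all genes past 2-fold, 36.7% were higher in replicate 2 with TMM, 20.9% with total counts and 24.4% in TPM without globin and mitochondrial genes.

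**Figure D3:**
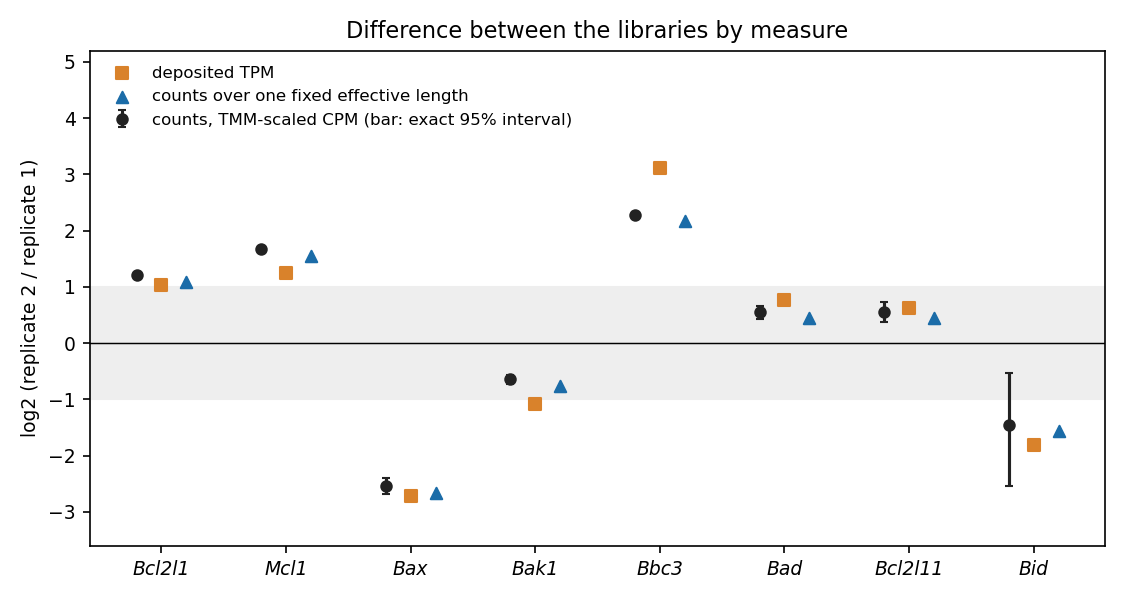
Log2 ratio of replicate 2 over replicate 1 for the 8 members tested, from counts (circles, with exact 95% counting intervals), deposited TPM (squares) and counts over 1 fixed effective length (triangles); the grey band is 2-fold. For Bbc3 the TPM ratio of 8.62 lies above the count ratio of 4.87 and the fixed-length ratio of 4.51, while Bax lies near the bottom by all 3 measures.

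TPM divides counts by the effective length of the transcripts in use, which differed between the libraries for several members. For Bbc3 it was 783 bases in replicate 1 and 407 bases in replicate 2. The TPM ratio of replicate 2 over replicate 1 was 8.62, and with 1 fixed effective length it was 4.51. For Mcl1 the effective length went the other way, 936 and 1149 bases, and the TPM ratio was 2.38 against 2.94 at fixed length. Bax has 1 transcript in the tables, and its ratio of replicate 1 over replicate 2 was 6.54 in TPM and 6.30 at fixed length.

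The leading transcript, the one with the highest percent of its gene's TPM, was the same in both libraries for 5 of the 6 detected members with more than 1 transcript (Bcl2l1, Mcl1, Bbc3, Bad and Bcl2l11), beside 65.4% of the 5519 genes that meet the same conditions. Bak1 was the exception, and the lead in Bad was narrow in replicate 1. By share of counts, Bad and Bbc3 also changed their lead. There Bad-202 (55.4%) and Bbc3-201 (71.7%) led in replicate 1. Shares between overlapping transcripts are model estimates, and the bounds given with them are those deposited by the authors, and no source used here gives their level.

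Among the transcripts listed for it, Bcl2l1 was almost wholly the BCL-XL form, and a form not listed could be given no share. Bcl2l1-201 (2417 bases) took 93.6% of the gene's TPM in replicate 1 and 99.8% in replicate 2. Together with Bcl2l1-202, which differs in its first exon, transcripts with the full coding length of 699 bases (233 residues) took 96.4% and 99.8%. No other coding length passed 1.05% in either library, and the noncoding Bcl2l1-209 took 2.32% and 0%. The start of Bcl2l1-201 is therefore the start that most Bcl2l1 transcripts share in these estimates, and the 250 bases before it are printed with those of the alternative starts of Bbc3.

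In Mcl1 the short transcript Mcl1-202 (858 bases) led with 91.2% and 84.0% of TPM, 269 and 589 TPM, against 25.8 and 112 TPM for Mcl1-201. In counts the shares of Mcl1-202 were lower, 68.8% in replicate 1 and 53.2% in replicate 2. Mcl1-202 is annotated from start codon to stop codon with no 5′ UTR. The stretch it leaves out, chr3:95658909-95659046 on the plus strand, is a multiple of 3 bases long, all coding, and 85.5% G or C. Mcl1-202 also lacks the 69 bases of 5′ UTR of Mcl1-201 and nearly all of the 2356 bases that follow its coding part. The stretch is printed because it is the coding difference at the branch shown above, with capitals on its first 5 bases and its last 1, which belong to a 6-base run, GGCGCC, that lies across both break points:
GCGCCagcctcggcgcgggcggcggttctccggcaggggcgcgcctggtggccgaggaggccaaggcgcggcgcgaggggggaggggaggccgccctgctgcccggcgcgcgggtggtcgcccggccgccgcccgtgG
Because of that repeat the break can be placed in 7 equivalent ways, and 0 of the 7 give a stretch that starts with GT and ends with AG, the usual ends of an intron. The stretch that separates the long from the extra-long form of Bcl2l11, 168 bases at chr2:128128757-128128924, does start with GT and end with AG as annotated.

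**Figure D4:**
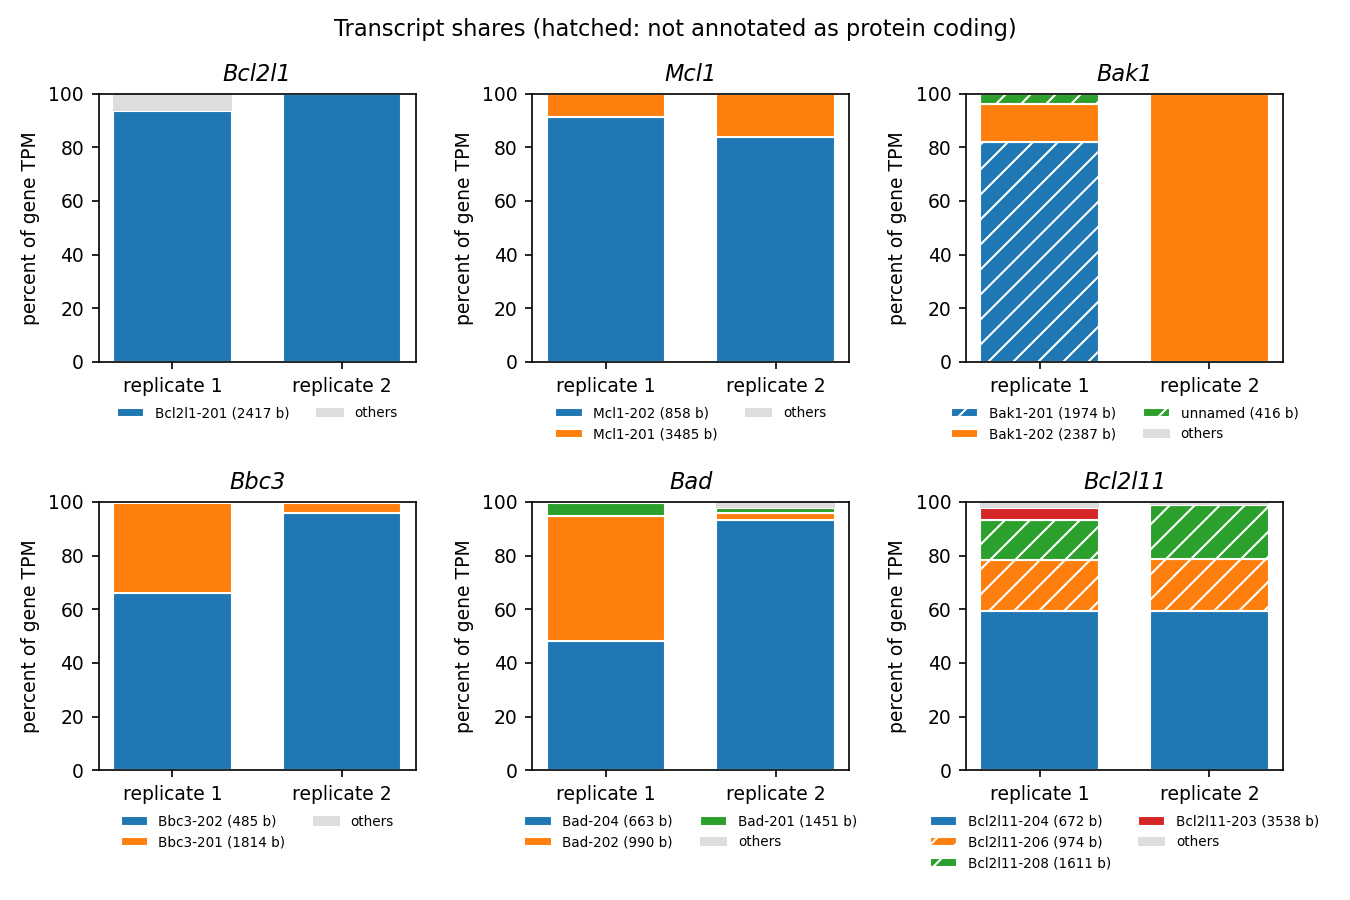
Percent of each gene's TPM taken by its transcripts in each library, for the 6 detected members with more than 1 transcript; lengths in bases stand beside the names and hatched parts are not annotated as protein coding. Bak1 is led by the hatched Bak1-201 in replicate 1 (81.8%) and wholly by Bak1-202 in replicate 2 (100%), while Bcl2l11-204 leads its gene in both (59.2% and 59.3%); grey is all other transcripts.

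Bak1 changed its leading transcript between the libraries. Bak1-201, which holds the 20-base exon shown above and carries the annotation of a target of nonsense-mediated decay, took 81.8% of TPM in replicate 1 and 0% in replicate 2. Its level was 102 TPM in replicate 1, with deposited bounds of 98.4 and 103 TPM, and 0 TPM in replicate 2, with an upper bound of 2.02 TPM. The coding Bak1-202, which lacks that exon, took 14.2% and 100%, or 17.7 and 59.3 TPM. The direction between the libraries thus depended on the transcripts counted: the gene was 2.11-fold higher in replicate 1 in TPM, while the TPM of its protein coding transcripts was 17.7 in replicate 1 and 59.3 in replicate 2. The same pair of transcripts also differs in the length of the first exon.

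In Bbc3 the short Bbc3-202 (485 bases, 3 exons) led with 65.9% and 95.7% of TPM over the full-length Bbc3-201 (1814 bases, 4 exons). Bbc3-201 itself was level, 48.8 TPM in replicate 1 and 46.8 TPM in replicate 2. Bbc3-202 was 95.3 TPM in replicate 1 and 1193 TPM in replicate 2. In these model estimates the TPM difference of the gene between the libraries thus lay in Bbc3-202. In counts Bbc3-201 led in replicate 1, with 71.7% of the gene against 28.0% for Bbc3-202. Bbc3-202 led in replicate 2, with 83.5% of counts against 15.5%. Bbc3-202 starts at an exon of its own and shares the first coding exon with Bbc3-201. It ends inside the next one with no annotated stop, 386 coding bases against 579.

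The windows before these starts are shown for the 2 transcripts of Bbc3 and for Bcl2l1-201, from RefSeq on GRCm38.p6 (mm10), 250 bases up to the base before the RefSeq start, 5′ to 3′ on the strand of the gene. Bbc3-201 start is chr7:16309333-16309582 (plus), Bbc3-202 start is chr7:16310181-16310430 (plus), and Bcl2l1-201 start is chr2:152831729-152831978 (minus). The RefSeq start lies 33 bases from the annotated first base of Bbc3-201, 24 bases from that of Bbc3-202 and 0 bases from that of Bcl2l1-201.
Bbc3-201 start: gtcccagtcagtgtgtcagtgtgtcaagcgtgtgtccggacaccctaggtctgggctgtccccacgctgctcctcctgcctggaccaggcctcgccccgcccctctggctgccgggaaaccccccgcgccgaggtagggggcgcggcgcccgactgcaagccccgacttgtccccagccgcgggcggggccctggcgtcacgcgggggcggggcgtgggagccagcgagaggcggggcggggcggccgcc
Bbc3-202 start: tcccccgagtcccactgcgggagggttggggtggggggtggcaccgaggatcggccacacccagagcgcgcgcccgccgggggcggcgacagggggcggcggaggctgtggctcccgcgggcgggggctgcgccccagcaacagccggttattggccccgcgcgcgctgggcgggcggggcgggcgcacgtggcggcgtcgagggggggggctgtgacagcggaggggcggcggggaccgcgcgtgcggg
Bcl2l1-201 start: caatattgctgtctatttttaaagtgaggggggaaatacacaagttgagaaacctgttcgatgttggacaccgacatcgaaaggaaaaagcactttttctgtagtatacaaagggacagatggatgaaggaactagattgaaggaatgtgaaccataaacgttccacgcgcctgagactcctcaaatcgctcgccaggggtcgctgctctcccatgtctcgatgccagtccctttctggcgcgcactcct

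The windows differ in base composition, with 76.4% G or C before Bbc3-201, 81.6% before Bbc3-202 and 47.6% before Bcl2l1-201. GATAA, a form of the GATA motif, was searched on both strands and was in none of these 3 windows. Among the 15 RefSeq windows of 9 members GATAA was in 1, that of the noncoding Bcl2l1-209. It was in 22.6% of all 32851 windows of the same length. The STAT motif TTCNNNGAA, which reads alike on both strands, was in 0 of the 15 windows and in 7.02% of all. No match says only that these letters are not in these 250 bases, and other forms of the GATA motif were not searched.

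In Bad the 2 libraries differed in the last exon. Bad-204 (663 bases) took 48.0% of TPM in replicate 1 and 93.2% in replicate 2, and Bad-202 (990 bases) 46.5% and 2.46%. Bad-204 was 32.3 and 106 TPM, with deposited bounds of 29.4 and 34.4 TPM in replicate 1 and 92.4 and 108 TPM in replicate 2. Bad-202 was 31.3 and 2.80 TPM, with deposited bounds of 29.1 and 32.7 TPM in replicate 1 that overlap those of Bad-204. In counts Bad-202 led in replicate 1, with 55.4% against 34.9% for Bad-204. Bad-204 led in replicate 2, with 88.9% of counts against 3.78%. All 5 Bad transcripts in the tables are annotated as coding, with 482 coding bases in Bad-204 and 486 in Bad-202. Bad-204 has no annotated 5′ UTR, and its 482 coding bases do not make a whole number of residues (160.667). Its coding part may therefore be incomplete.

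In Bcl2l11 the leading transcript had close to the same share of TPM in both libraries, while shares of counts moved more. The short coding form, Bcl2l11-204, took 59.2% of TPM in replicate 1 and 59.3% in replicate 2. The noncoding Bcl2l11-206 took 19.2% and 19.5%, and Bcl2l11-208 14.8% and 20.1%. The long form Bcl2l11-203 took 4.47% and 0%, and the extra-long form Bcl2l11-205 1.23% and 0%. These shares depend on length, since Bcl2l11-204 has 672 bases and Bcl2l11-205 has 5036. In counts the noncoding transcripts together took 40.7% and 57.0%, more than the short coding forms with 33.5% and 43.0%. The long form took 16.5% and 0% of counts, and the extra-long form 6.55% and 0%. For the long form the deposited upper bound in replicate 2, 0.293 TPM, lay below the lower bound in replicate 1, 0.676 TPM. With 300 counts for the gene in replicate 2, the deposited upper bound for the extra-long form there was 0.338 TPM, above its 0.27 TPM in replicate 1, so a difference in the extra-long form was not detectable at this depth.

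Of the 15 other BCL2 family genes, 5 reached 1 TPM in each library, beside 17.2% of all genes and 33.1% of protein coding genes. The mitophagy receptor genes Bnip3l and Bnip3, distant relatives with a BH3-like part, had the highest means, 382 ± 456 and 319 ± 48.7 TPM. Bnip3 had 284 and 353 TPM in the 2 libraries, and Bnip3l had 59.1 and 705 TPM, below Bcl2l12 in replicate 1. Bcl2l12 had 69.3 ± 0.933 TPM, Bcl2l13 36.2 ± 18.3 TPM, and Bcl2l2, the gene of the protective protein BCL-W, 31.3 ± 2.03 TPM (29.8 in replicate 1 and 32.7 in replicate 2). Both values of Bcl2l2 lay above those of Bcl2, which stayed under 0.1 TPM. In TMM-scaled CPM, 2 of these 5 were past 2-fold (Bnip3l and Bcl2l2, both higher in replicate 2), beside 47.9% of all genes tested. For Bcl2l2 that ratio was 2.14 while its TPM was nearly level, so its call depended on the measure.

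The other family genes were close to 0. The protective genes Bcl2a1b and Bcl2a1d, and also Bcl2l10, had 0 counts in both libraries. This allows up to 0.0426 CPM in replicate 1 and 0.217 CPM in replicate 2. Bcl2a1a had 0 and 2 counts; it is a near-identical copy of the other Bcl2a1 genes, so its counts are uncertain. The BH3-only genes Bmf and Hrk had 0 and 3 counts and 0 and 1 counts, and Bik had 31 and 1. The effector-like gene Bok had 2 and 0 counts, Bcl2l14 0 and 10, and Bcl2l15 1 and 0.

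Of 14 genes of the mitochondrial death machinery and its channels, 12 reached 1 TPM in each library, beside 33.1% of protein coding genes. These 12 had a median of 15.6 TPM. Mff, a fission receptor of the outer membrane, was the highest with 467 and 2790 TPM, and the channel genes Vdac2 and Vdac1 had the next highest means, with 192 and 191 TPM and with 84.5 and 55.7 TPM, although Htra2 lay above Vdac1 in replicate 1. Cycs, the gene of the cytochrome c that BAX and BAK1 release, had the lowest mean, with 2.40 TPM (493 counts) in replicate 1 and 1.12 TPM (6 counts) in replicate 2, where Dnm1l and Aifm1 were lower. In TMM-scaled CPM all 14 were tested, with 3 past 2-fold higher in replicate 2 and 4 in replicate 1, beside 17.6% and 30.4% of all genes tested.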

How the data were processed

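Polyadenylated RNA of 2 libraries was analysed. Per the labels the authors used mm10, with GENCODE M4 and transcriptome alignments according to a text file deposited with the tables. No source used here names the aligner, the quantifier or the use of strand. The authors deposited estimated counts (not always whole), length-corrected TPM and FPKM with posterior means, and transcript shares in percent. Names came from GENCODE M21 by identifier without version. The members, roles and gene lists were chosen with earlier results of these data known. All 10 members and all other BCL2 family genes are named, and of each further list the 3 highest and the lowest by mean TPM. Htra2, Dnm1l, Aifm1, Trim17, Mapk8, Btrc and Nfkb1 were named after their values were seen. Ggnbp1, Gpr137, Gm45808 and Gm44260 were added because they overlap members.

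For setting the libraries side by side, counts were rounded and scaled with TMM factors of 1.15 and 0.871 (edgeR 4.0.16), with a prior count of 0.5, over 8895 genes whose mean CPM was 1 or more. Exact binomial intervals at 95% cover counting error only. With 1 group of 2 libraries no test between conditions was possible, and the smallest two-sided exact sign-flip p would be 0.5. Fixed-length values divide counts by the mean effective length of both libraries. The fold calls were tested on simulated data that held counting error only, where 4 of 8684 unchanged genes were called. Those data held none of the wider spread between these libraries, so they do not cover it. Alternatives were other minimum levels, folds, scalings (DESeq2 1.42.0 size factors among them), length corrections and member sets. R 4.3.3, Python 3.11.15, pandas 2.3.3 and scipy 1.17.1 were used.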

Additional observations from a re-analysis of the deposited data

How the results depend on the processing

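The protective over death-promoting log2 ratio of -0.22 kept its sign and stayed within 1 SD with a pseudocount of 1, in FPKM and with posterior mean TPM, and was -0.23 to -0.21 without either replicate. It was -0.035 with 1 fixed effective length per gene, -0.088 for protein coding transcripts only (0.02 in replicate 1 and -0.19 in replicate 2) and -1.29 without Mcl1. Its sign reversed in CPM without length correction (1.00), without Bbc3 (1.22), with the effectors only (1.97) and with the BH3-only genes only (0.60). The cause was not tested. The count of 7 detected members ranged from 7 to 8 without either replicate, was 8 with posterior mean TPM (Bid) and 10 with at least 1 count. The count of 5 members past 2-fold between the libraries was 2 with a 4-fold threshold (Bax and Bbc3), and 4 to 7 under the other alternatives, which were other scalings, filters and a fold of 1.5. Leaving out a replicate could not be done for that count or for leading transcripts, which need both libraries. The 5 members with the same leading transcript became 6 when protein coding transcripts alone were considered. By share of counts, Bad and Bbc3 did not keep the same lead. The mean TPM of each member stayed within 1 SD with posterior means and with fixed effective lengths. With 2 libraries, leaving out either cannot move a mean by more than 1 SD and says nothing of stability: Bbc3 ranged from 145 to 1247 TPM and Bax from 49.6 to 325 TPM. No paired analysis was possible because the labels give 1 group. At 13841484 counts, replicate 2 limits what can be said of Bcl2, Bid, Pmaip1 and the rarer transcripts of Bcl2l11.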

Other observations

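Genes whose products act on the members were also expressed. Among 20 regulators of the members' proteins, 16 reached 1 TPM in each library, beside 33.1% of protein coding genes. These 16 had a median of 77.1 TPM. Tpt1, whose protein binds MCL1 and BCL-XL, had 1862 and 4098 TPM in replicates 1 and 2. Pim1, a kinase that phosphorylates BAD, had 441 and 1783 TPM, and Dynll1, a dynein light chain that binds BIM, 338 and 205 TPM. The 14-3-3 gene Sfn had the lowest mean, from 0.21 and 1.03 TPM, although Trim17 was lower in replicate 1 and Mapk8 and Btrc in replicate 2. In TMM-scaled CPM, 19 were tested, with 4 past 2-fold higher in replicate 2 and 4 higher in replicate 1, beside 17.6% and 30.4% of all genes tested.

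Of 14 transcription factor genes known to act on the members' genes 12 reached 1 TPM in each library, beside 33.1% of protein coding genes. These 12 had a median of 85.1 TPM. Gata1 had 3038 and 2940 TPM, Klf1 665 and 2351 TPM, and Foxo3, a factor for Bcl2l11 and Bbc3, 204 and 184 TPM. The Gata1 values do not tell transcripts of the GATA1 fusion from those of the cells' own gene. Trp73 (0.10 and 0.62 TPM) and Nfkb1 (0.41 and 0.32 TPM) had the lowest means, which were nearly equal. Of the 12 tested in TMM-scaled CPM, 2 were past 2-fold higher in replicate 2 and 1 in replicate 1, beside 17.6% and 30.4% of all genes tested.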
